A study of Mus musculus with 12 samples.

Results

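The 45 genes described here are antiviral genes that cells switch on in response to type I interferon. They were chosen by symbol, as a list of genes known for this response in mice, and all 45 were found among the 23284 genes of the deposited table. The choice was made with earlier results of these data known. Counts of the 45 set beside shares of all genes are therefore a description. Each of the 45 genes passed the filter on low counts and was tested. Their transcripts were counted by RNA sequencing in the terminal ileum, the last stretch of the small intestine, of 12 mice in 4 groups of 3, with 1 library per mouse. Rag1-/- mice lack the enzyme that joins antigen receptor gene segments and therefore form no mature T or B cells, and 3 of them were compared with wild type (WT) C57BL/6 mice. Tcra-/- mice lack the alpha chain of the T cell receptor and form no conventional T cells of the alpha beta kind, while gamma delta T cells and B cells remain possible. Of these, 3 were co-housed, which per the labels means that male Tcra-/- and age-matched WT mice shared a cage for 4 to 8 weeks, and the other 3 were housed separately. No allele or agent beyond these is named for any group. The sources used here do not give the age of the mice, the cage of each mouse, or the housing of the Rag1-/- and WT mice. Housing and any other difference between cages cannot be told apart, and tests over mice measure the spread between mice, not between cages.

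Type I interferons bind a receptor that is present on most cells, and the kinases Jak1 and Tyk2 then activate transcription factors. Stat2 and Irf9 are parts of a complex that binds the interferon-stimulated response element, a DNA motif in the promoters of many antiviral genes. The products sense foreign nucleic acid, block viral entry, translation or replication, tag proteins with the ubiquitin-like modifier Isg15, and damp the response again. Interferon lambda, which acts mainly on epithelium, uses the same complex, and interferon gamma, made by T cells and innate lymphocytes, raises some of the same genes. In bulk tissue, a change in the number of cells of a type and a change in RNA per cell cannot be told apart.

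Levels are given as CPM, the reads of a gene scaled to a common library size, with library sizes corrected by the trimmed mean of M-values (TMM). Total counts per library lay between 42717064 and 50581616 in Rag1-/- mice, between 37061276 and 43496528 in co-housed Tcra-/- mice, between 40294353 and 44574864 in separately housed Tcra-/- mice and between 42067145 and 42312100 in WT mice. The markers of the tissue were present in every library, with a summed level of 12728 to 13640 CPM over 6 epithelial genes in Rag1-/- mice, 12351 to 13961 in co-housed, 13316 to 14620 in separately housed Tcra-/- mice and 13924 to 14688 in WT mice. B cell markers, 6 genes in sum, had 2.41 to 3.38 CPM in Rag1-/- mice and 135 to 160 CPM in WT mice. Rag1 itself had 75, 69 and 92 reads in the Rag1-/- mice and no read in the other 9 libraries. Which part of the gene was deleted is not stated in the labels, so these reads check nothing. Tcra, Trac and Tcrb were looked up by symbol and were not found in the deposited table, so the Tcra-/- label was not checked with them. Mouse RAG1x3163 had the lowest value of its group in 43 of the 45 antiviral genes, against 32.9% of all genes tested, and TCRaCox3157 the lowest of its group in 35, against 37.1% of all genes. Counts of called members in which either mouse moved the count are therefore also given without it. These mice were picked for being lowest in the same genes, so a rise in the count without them is built in. Such counts describe how far the calls depend on that mouse and add no evidence for a call. Counts per gene family without other mice are not given, but the count over all 45 is.

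A promoter sequence was found for 33 of the 45 genes in the RefSeq table of mouse promoters, which holds 250 bases before and 50 bases after each gene's start on build GRCm38.p6. The core of the interferon-stimulated response element, here called the GAAA pair and spelled as GAAA, then any 2 bases, then GAAA, was searched on both strands with overlapping matches counted. It was present in 15 of the 33 windows, or 45.5%, and in 3.99% of the 27025 genes of that table. A match is a description of the letters and not a measured site. The sequences that carry the examples below are shown for the 250 bases before the start, 5′ to 3′ on the strand of the gene, with the matches to the GAAA pair on either strand in capitals. Isg15, Oas1a and Oas1g show runs of overlapping matches close to the start, Ifit1 has separate matches on the opposite strand, and the neighbours Rsad2 and Cmpk2 are shown because they differ from each other in the values below. The windows are chr4:156200819-156201068 on the minus strand for Isg15, chr19:34640639-34640888 on the plus strand for Ifit1, chr5:120907526-120907775 on the minus strand for Oas1a, chr5:120887614-120887863 on the minus strand for Oas1g, chr12:26456453-26456702 on the minus strand for Rsad2 and chr12:26468965-26469214 on the plus strand for Cmpk2.
Isg15: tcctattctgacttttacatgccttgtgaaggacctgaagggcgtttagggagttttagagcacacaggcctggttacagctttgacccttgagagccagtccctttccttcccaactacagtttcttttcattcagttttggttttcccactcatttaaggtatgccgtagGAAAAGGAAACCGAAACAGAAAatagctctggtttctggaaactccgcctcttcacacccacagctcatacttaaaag
Ifit1: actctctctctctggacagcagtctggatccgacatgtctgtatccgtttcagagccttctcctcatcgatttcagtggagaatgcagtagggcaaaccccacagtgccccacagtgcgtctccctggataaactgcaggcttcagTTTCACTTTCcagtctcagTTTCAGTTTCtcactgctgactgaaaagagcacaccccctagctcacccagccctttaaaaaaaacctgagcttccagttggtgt
Oas1a: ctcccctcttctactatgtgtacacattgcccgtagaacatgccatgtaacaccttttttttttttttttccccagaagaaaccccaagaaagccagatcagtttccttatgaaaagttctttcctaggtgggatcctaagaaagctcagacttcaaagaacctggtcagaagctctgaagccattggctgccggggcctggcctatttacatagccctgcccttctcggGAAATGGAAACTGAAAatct
Oas1g: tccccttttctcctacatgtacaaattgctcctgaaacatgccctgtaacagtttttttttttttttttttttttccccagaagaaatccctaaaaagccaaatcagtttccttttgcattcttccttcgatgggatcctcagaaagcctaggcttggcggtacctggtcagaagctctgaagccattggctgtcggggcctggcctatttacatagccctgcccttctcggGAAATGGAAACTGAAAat
Rsad2: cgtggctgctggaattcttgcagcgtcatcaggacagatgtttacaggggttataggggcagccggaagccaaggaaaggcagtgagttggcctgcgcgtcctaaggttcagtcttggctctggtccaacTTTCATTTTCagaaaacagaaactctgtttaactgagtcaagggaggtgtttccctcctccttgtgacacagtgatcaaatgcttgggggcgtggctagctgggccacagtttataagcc
Cmpk2: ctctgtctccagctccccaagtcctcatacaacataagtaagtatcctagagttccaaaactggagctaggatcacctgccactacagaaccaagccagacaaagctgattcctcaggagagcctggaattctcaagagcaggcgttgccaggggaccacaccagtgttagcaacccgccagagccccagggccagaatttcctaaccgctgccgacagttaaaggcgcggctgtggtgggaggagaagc

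Isg15 held 3 overlapping matches, the first of them starting 78 bases before the start of the gene. Ifit1, Oas1a and Oas1g held 2 each, Rsad2 held 1 and Cmpk2 held 0 in the printed stretch. The promoters of Oas1a and Oas1g were identical at 82.8% of 256 aligned positions, and the stretch around their matches is the same in both. Gene positions below are those of the deposited table, on build mm9, and are not to be set beside the promoter positions.

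The question of the first stated comparison is how the ileum of Rag1-/- mice differs from that of WT mice. Of the 45 antiviral genes, 14 rose in Rag1-/- mice, 0 fell and 31 were not called, by edgeR's quasi-likelihood test at 0.01 after Benjamini-Hochberg adjustment over all 15866 genes tested. Of all genes tested, 9.42% were called higher and 11.5% lower in the same comparison. The median log2 fold change was 0.51 over the 45 genes and -0.02 over all genes tested, and 38 of the 45 lay above 0. Without mouse RAG1x3163 the number of members called higher was 25 and the median 0.63, and it was 9 without RAG1x3164, without WTB6x3159 or without WTB6x3160. By DESeq2 24 members were called higher and 1 lower. All 3 Rag1-/- mice lay above all 3 WT mice in 24 members, and below them in 2, Cmpk2 and Ifi27l2a, against 22.2% and 23.5% of all genes tested.

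The second stated comparison asks what housing with WT mice does in Tcra-/- mice. Of the 45 antiviral genes, 39 rose in co-housed over separately housed Tcra-/- mice, 1 fell and 5 were not called. Of all genes tested, 21.1% were called higher and 17.7% lower here. The median log2 fold change was 1.36 over the 45 genes, with a range of -0.92 to 4.60, and -0.01 over all genes tested. Without mouse TCRaCox3157 again 39 members were called higher, and 0 lower. All 3 co-housed mice lay above all 3 separately housed mice in 40 members and below them in 1, against 30.1% and 27.8% of all genes tested. The single gene that fell was Cmpk2, and the 5 not called were Ddx58, Ifi27l2b, Ifi35, Samd9l and Trim25. The 14 genes that rose in Rag1-/- mice all rose here too, which is 100% of those 14 and 35.9% of the 39. Over all genes tested, 78.3% of those higher in Rag1-/- mice were also higher in this comparison, and the comparisons share no library.

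**Figure D1:**
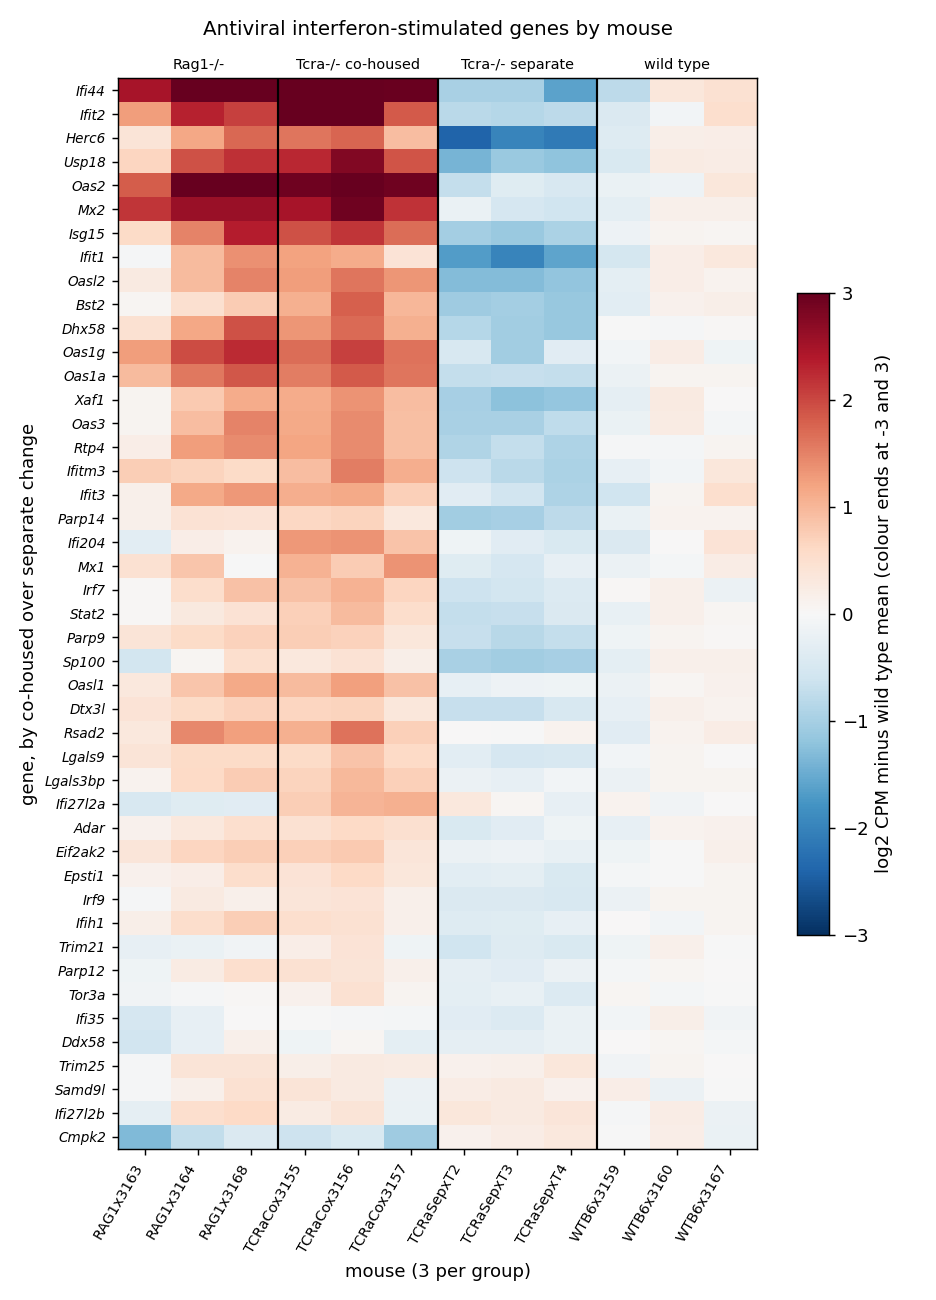
Log2 CPM of the 45 antiviral genes (rows) in each of the 12 mice (columns, 3 per group) minus the mean of the 3 WT mice, with red for higher and blue for lower and the colour ending at -3 and 3. The Rag1-/- and co-housed Tcra-/- columns are mostly red, the separately housed Tcra-/- columns mostly blue, and RAG1x3163 is the palest of the Rag1-/- mice.

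Among the sensors of foreign RNA in the cytosol, Ifih1 and Dhx58 were higher in both comparisons and Ddx58 was not called in either. Ifih1 (MDA5, chromosome 2, 62433850 to 62484312) had 130, 165 and 191 CPM in Rag1-/- mice, 162, 156 and 128 in co-housed Tcra-/-, 87.1, 88.7 and 96.1 in separately housed Tcra-/- and 115, 108 and 121 in WT mice. The Rag1-/- and the co-housed values all lay above those of the separately housed and WT mice. It rose in Rag1-/- over WT mice (log2 fold change 0.50, SE 0.12, adjusted p = 0.00518) and in co-housed over separately housed Tcra-/- mice (0.72, SE 0.12, adjusted p = 0.000172). The call against WT ended without RAG1x3164, RAG1x3168 or any single WT mouse, with adjusted p from 0.0107 to 0.0286 in those fits and from 0.000248 to 0.0371 over all refits. Dhx58 (LGP2, which tunes the other sensors) averaged 21.7 ± 10.7 CPM in Rag1-/- and 8.80 ± 0.233 in WT mice (SD, n = 3 each), 2.46-fold higher (adjusted p = 0.00841). That call ended without RAG1x3164 or any single WT mouse, with adjusted p from 0.0183 to 0.0378 (8.32e-05 to 0.0499 over all refits). In co-housed Tcra-/- mice Dhx58 averaged 23.03 ± 5.21 CPM against 4.37 ± 0.428 in separately housed mice, 5.27-fold higher (adjusted p = 0.000127). Ddx58 (RIG-I) ran from 54.5 to 90.2 CPM in Rag1-/- mice, from 66.8 to 85.3 in co-housed, from 67.3 to 71.4 in separately housed Tcra-/- and from 79.0 to 84.5 in WT mice, so that all groups but the last 2 overlapped (difference among the 4 groups, adjusted p = 0.410).

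The transcription factors of the pathway rose in the housing comparison, 3 of 3. In Rag1-/- over WT mice 0 of 3 were called, and 1 of 3, Irf7, without RAG1x3163. Stat2 (chromosome 10, 127707632 to 127729905) had 85.95, 102 and 113 CPM in Rag1-/- mice, 137, 161 and 121 in co-housed Tcra-/-, 50.8, 51.8 and 61.5 in separately housed Tcra-/- and 72.1, 92.5 and 87.4 in WT mice. The co-housed mice were above every other mouse and the separately housed mice below every other mouse, while the Rag1-/- and WT mice overlapped. Stat2 rose 2.56-fold with co-housing (log2 fold change 1.36, SE 0.13, adjusted p = 1.15e-06), and its value in Rag1-/- over WT mice was 0.25 (SE 0.13, adjusted p = 0.149). Irf9, its DNA-binding partner, averaged 66.8 ± 6.29 CPM in co-housed and 39.4 ± 0.770 CPM in separately housed Tcra-/- mice, a log2 fold change of 0.76 (adjusted p = 6.11e-06), and had a log2 fold change of 0.13 (adjusted p = 0.313) in Rag1-/- over WT mice. Irf7, the factor that drives interferon alpha genes, had 131, 185 and 233 CPM in Rag1-/- mice, 233, 263 and 199 in co-housed Tcra-/-, 83.3, 87.1 and 95.96 in separately housed Tcra-/- and 130, 142 and 112 in WT mice. RAG1x3163 lay within the range of the WT mice and the other 2 Rag1-/- mice above it. The log2 fold change of Irf7 was 0.51 in Rag1-/- over WT mice (SE 0.18, adjusted p = 0.0539), and 1.38 with co-housing, where it was called (adjusted p = 9.34e-05). Without RAG1x3163 Irf7 was called in Rag1-/- over WT mice (0.71, adjusted p = 0.00108), as it was by DESeq2 (adjusted p = 0.00623), with 0.00108 to 0.173 over all refits.

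Of the 4 genes of the Isg15 conjugation system, 1 rose in Rag1-/- mice and 3 with co-housing, and without RAG1x3163 all 4 were called higher in Rag1-/- over WT mice. Isg15 (chromosome 4, 155573533 to 155574927), chosen for description after its values were seen, had 23.5, 44.8 and 80.7 CPM in Rag1-/- mice, 59.4, 69.8 and 50.6 in co-housed Tcra-/-, 7.86, 7.31 and 8.27 in separately housed Tcra-/- and 14.4, 16.8 and 16.6 in WT mice. Each Rag1-/- mouse was above each WT mouse, and RAG1x3168 had over 3 times the level of RAG1x3163. Isg15 rose 3.12-fold in Rag1-/- over WT mice (adjusted p = 0.00982) and 7.67-fold in co-housed over separately housed mice (adjusted p = 0.000272). The Rag1-/- call ended without RAG1x3164 or any single WT mouse (adjusted p 0.0224 to 0.0402, and 3.38e-05 to 0.0683 over all refits). Usp18, which removes Isg15 from proteins and inhibits the interferon receptor, averaged 30.7 ± 14.4 CPM in Rag1-/- and 9.54 ± 2.42 in WT mice and missed the threshold (log2 fold change 1.69, adjusted p = 0.0116). With co-housing Usp18 rose 12.01-fold, at 47.5 ± 14.9 CPM in co-housed against 3.96 ± 0.371 CPM in separately housed mice. Herc6, which attaches Isg15 to proteins in mice, rose 12.3-fold there (93.2 ± 25.6 against 7.60 ± 1.06 CPM, co-housed against separately housed), and 12.5% of its 50-base words also occur in another gene. Trim25, a ubiquitin ligase that acts on the sensor RIG-I, had 179.7, 240.0 and 242 CPM in Rag1-/- mice, 210.2, 222 and 219.6 in co-housed Tcra-/-, 204, 205 and 233 in separately housed Tcra-/- and 171, 197 and 188 in WT mice. The co-housed and separately housed mice overlapped, as did the Rag1-/- and WT mice, and Trim25 was called in neither comparison (log2 fold change 0.25 and 0.02). Without RAG1x3163, the lowest of the Rag1-/- mice, Trim25 was called higher in Rag1-/- over WT mice (0.38, adjusted p = 0.00328, and 0.00328 to 0.537 over all refits).

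The Ifit genes encode proteins that bind foreign RNA, and they stand beside each other on chromosome 19 of mm9 in the order Ifit2, Ifit3 and Ifit1. All 3 rose with co-housing and 1, Ifit2, was called in Rag1-/- mice. Without RAG1x3163 Ifit3 was called there too (1.15, adjusted p = 0.00437, and 0.00437 to 0.172 over all refits), which makes 2 of 3. Ifit1 (chromosome 19, 34715379 to 34724499) had 58.2, 114 and 153 CPM in Rag1-/- mice, 138, 129 and 78.8 in co-housed Tcra-/-, 18.7, 15.1 and 19.9 in separately housed Tcra-/- and 41.3, 68.3 and 74.2 in WT mice. The co-housed mice lay far above the separately housed ones (6.45-fold, adjusted p = 0.000551), whereas RAG1x3163 fell among the WT mice and the value in Rag1-/- over WT mice missed the threshold (log2 fold change 0.82, SE 0.38, adjusted p = 0.140). Ifit2 averaged 38.3 ± 13.1 CPM in Rag1-/- and 10.3 ± 3.45 in WT mice, 3.70-fold higher with an adjusted p of 0.00997, next to the threshold. That call ended without RAG1x3164, RAG1x3168 or any single WT mouse, with adjusted p up to 0.0412 (5.41e-05 to 0.0412 over all refits). With co-housing Ifit2 rose 12.8-fold, at 72.5 ± 32.9 CPM in co-housed against 5.65 ± 0.154 CPM in separately housed mice. Ifit3 rose 2.98-fold with co-housing, and 51.2% of its 50-base words are shared with Ifit3b, so its reads are uncertain.

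Oligoadenylate synthases make the second messenger that activates the ribonuclease RNase L, and of the Oas genes 4 of 6 rose in Rag1-/- mice and 6 of 6 with co-housing. Without RAG1x3163 all 6 were called higher in Rag1-/- mice as well. They lie in 2 groups on chromosome 5 of mm9, with Oas2, Oas3, Oas1g and Oas1a in the one and Oasl2 and Oasl1 in the other. Oas1a (chromosome 5, 121346266 to 121357534) had 20.4, 31.9 and 38.7 CPM in Rag1-/- mice, 30.6, 37.6 and 31.99 in co-housed Tcra-/-, 6.43, 6.57 and 6.47 in separately housed Tcra-/- and 9.36, 11.3 and 11.3 in WT mice. The groups did not overlap in either comparison, and Oas1a rose 2.85-fold in Rag1-/- over WT mice and 5.15-fold with co-housing (adjusted p = 3.47e-07). Oas1g, its neighbour, had 13.1, 21.3 and 26.04 CPM in Rag1-/- mice against 5.17, 6.44 and 5.03 in WT mice, and 17.7, 22.9 and 16.9 in co-housed against 3.93, 2.68 and 4.35 in separately housed Tcra-/- mice. It was 3.63-fold higher in Rag1-/- mice (adjusted p = 7.19e-05) and 5.24-fold higher in co-housed mice. Oas1a shares 57.6% of its 50-base words with Oas1g, and the treatment of reads that map to both is not stated in the labels, so the values of this pair are uncertain.

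Oas2 (chromosome 5, 121180342 to 121199857) had 13.4, 30.8 and 42.6 CPM in Rag1-/- mice, 28.8, 30.4 and 28.9 in co-housed Tcra-/-, 2.30, 2.94 and 2.73 in separately housed Tcra-/- and 3.33, 3.42 and 4.81 in WT mice. The 3 co-housed mice were within 2 CPM of each other while the Rag1-/- mice differed over 3-fold among themselves, and both groups lay above all other mice. Oas2 rose 7.52-fold in Rag1-/- over WT mice (log2 fold change 2.91, SE 0.37, adjusted p = 0.000231) and 11.1-fold with co-housing. With only the 6 libraries of Rag1-/- and WT mice in the fit its adjusted p was 0.0121 (3.89e-14 to 0.0121 over all refits). Oasl1, which lacks synthase activity, rose by 0.79 in log2 in Rag1-/- mice (adjusted p = 0.00378), a call that ended without RAG1x3164, WTB6x3159 or WTB6x3160 (adjusted p 0.0146 to 0.0185, and 3.74e-06 to 0.0284 over all refits). Oas3 and Oasl2 were not called in Rag1-/- over WT mice, at log2 fold changes of 0.94 and 0.97 (adjusted p = 0.0461 and 0.0229), and rose by 2.06 and 2.67 with co-housing. Without RAG1x3163 Oas3 and Oasl2 were both at 1.23 in Rag1-/- over WT mice and called (adjusted p = 0.000604 and 0.000450), and DESeq2 with all mice called both, with 0.000604 to 0.145 for Oas3 and 0.000450 to 0.106 for Oasl2 over all refits.

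**Figure D2:**
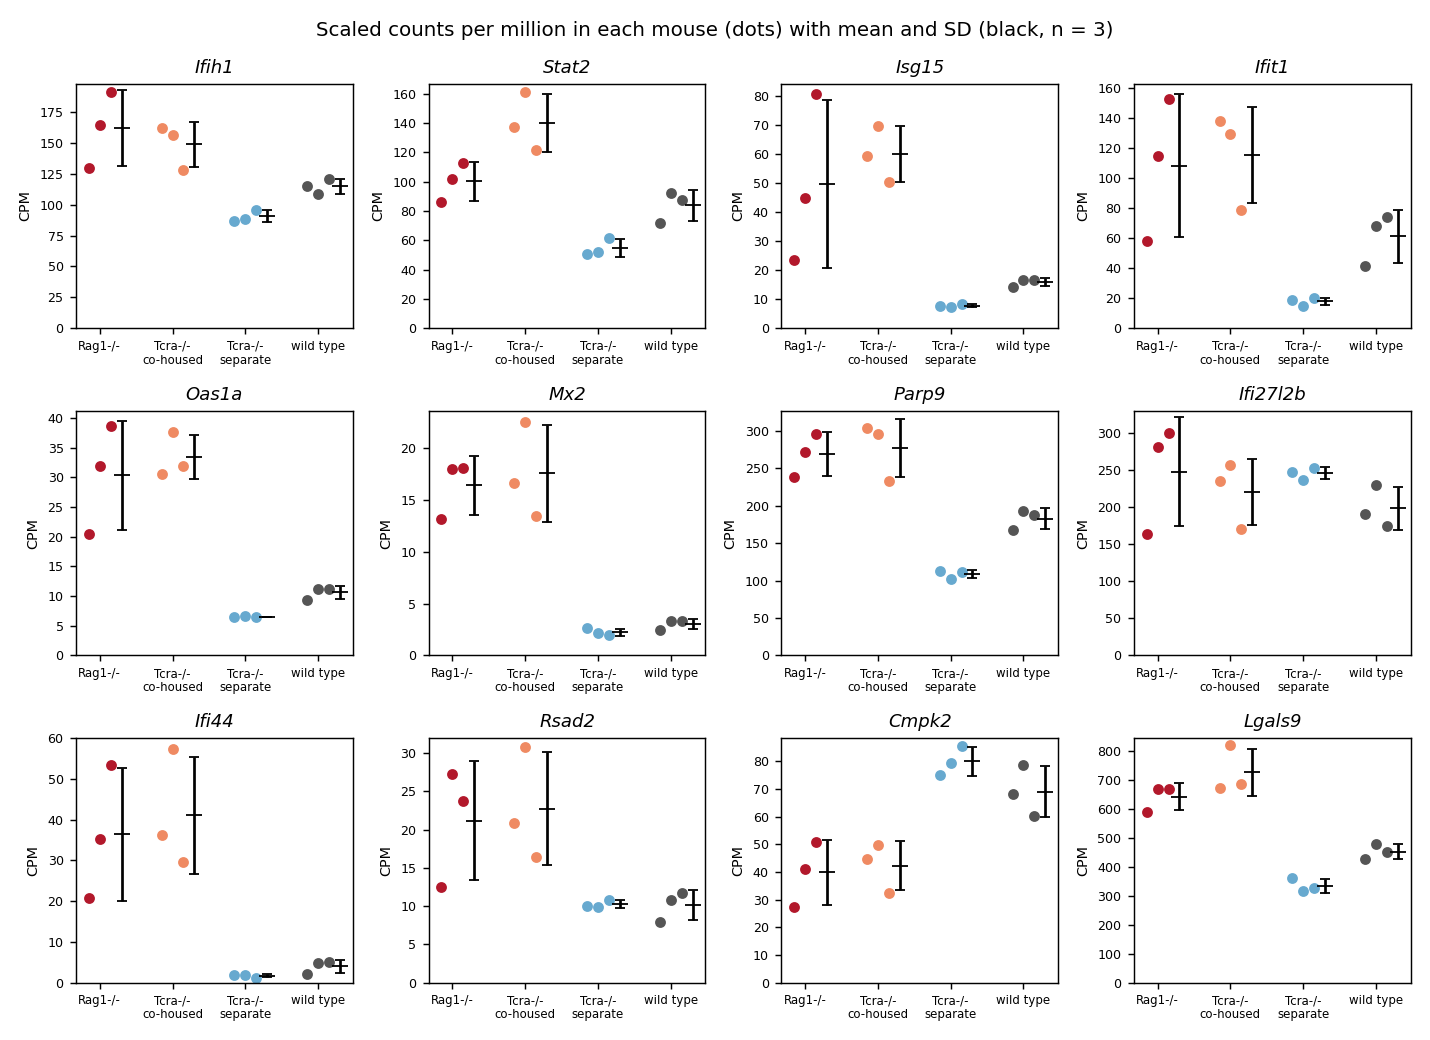
CPM of 12 antiviral genes in each mouse, with the mean and SD of 3 mice in black and the groups from left to right Rag1-/-, co-housed Tcra-/-, separately housed Tcra-/- and WT; every axis starts at 0. Oas1a, Mx2 and Ifi44 separate the first 2 groups from the last 2, Ifi27l2b shows overlapping groups, and Cmpk2 is lower in the first 2 groups.

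Among the 9 genes grouped here as effectors, Mx2 and Eif2ak2 rose in Rag1-/- mice, which with Rsad2 made 3 of 9 without RAG1x3163. With co-housing 7 of 9 rose and 1 fell (7 and 0 without TCRaCox3157). Transcript levels do not show how much working protein is made. Mx2 (chromosome 16, 97757688 to 97782508), a dynamin-like GTPase, had 13.2, 17.99 and 18.1 CPM in Rag1-/- mice, 16.7, 22.6 and 13.4 in co-housed Tcra-/-, 2.61, 2.12 and 1.97 in separately housed Tcra-/- and 2.43, 3.33 and 3.33 in WT mice. It had the smallest adjusted p of the 45 genes in both comparisons, with a 5.41-fold rise in Rag1-/- mice (log2 fold change 2.44, SE 0.20, adjusted p = 3.74e-07) and a 7.86-fold rise with co-housing (2.97, SE 0.21, adjusted p = 3.20e-08). Its neighbour and relative Mx1, which in C57BL/6 mice is known to carry a deletion in its coding sequence, averaged 16.1 ± 4.59 CPM in Rag1-/- mice, 24.6 ± 5.17 in co-housed Tcra-/-, 9.10 ± 0.767 in separately housed Tcra-/- and 11.8 ± 1.66 in WT mice. Mx1 rose 2.70-fold with co-housing and was not called in Rag1-/- mice (log2 fold change 0.45, adjusted p = 0.100). The ratio of Mx2 to Mx1 CPM was 0.820 to 1.56 in Rag1-/- mice, 0.447 to 1.14 in co-housed, 0.200 to 0.285 in separately housed Tcra-/- mice and 0.233 to 0.295 in WT mice.

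Eif2ak2 (PKR, a kinase that halts translation on double-stranded RNA) had 79.2, 97.4 and 104 CPM in Rag1-/- mice against 56.95, 61.4 and 68.5 in WT mice, with no overlap. It rose by 0.59 in log2 (SE 0.11, adjusted p = 0.00106) and by 0.82 with co-housing. The Rag1-/- call ended with library size alone as the scaling (0.42, adjusted p = 0.0113). Ifitm3, which blocks fusion of viral and host membranes, had 63.3, 60.5 and 57.2 CPM in Rag1-/- mice, 72.97, 111 and 81.5 in co-housed Tcra-/-, 24.9, 21.6 and 19.9 in separately housed Tcra-/- and 32.03, 36.03 and 48.2 in WT mice. The 4 groups did not overlap, and the order was co-housed, Rag1-/-, WT and separately housed from high to low. Ifitm3 rose 3.99-fold with co-housing (SE 0.17 in log2, adjusted p = 1.53e-06) and missed the threshold in Rag1-/- over WT mice (0.64, adjusted p = 0.0115), where it was called without WTB6x3167 (0.83, adjusted p = 0.00119, and 0.000345 to 0.0697 over all refits). Bst2 (tetherin, which holds budding virus at the cell surface) rose 5.31-fold with co-housing and Adar, the editor of double-stranded RNA, 1.77-fold, and neither was called in Rag1-/- mice. Samd9l, an inhibitor of translation, ran from 119 to 184 CPM over the Rag1-/- and co-housed mice and from 118 to 160 CPM over the others, and no difference among the 4 groups was called (adjusted p = 0.570).

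Rsad2 and Cmpk2 are neighbours on chromosome 12 of mm9, 12762 bases apart and on opposite strands, and went opposite ways. Both were picked for description after their values were seen. Rsad2 (viperin, which makes a nucleotide that ends viral RNA chains) had 12.5, 27.3 and 23.7 CPM in Rag1-/- mice, 20.9, 30.8 and 16.4 in co-housed Tcra-/-, 10.1, 9.92 and 10.8 in separately housed Tcra-/- and 7.96, 10.9 and 11.7 in WT mice. Cmpk2, a nucleotide kinase that supplies its substrate, had 27.4, 41.3 and 50.9 CPM in Rag1-/- mice, 44.8, 49.8 and 32.6 in co-housed Tcra-/-, 75.1, 79.5 and 85.6 in separately housed Tcra-/- and 68.1, 78.8 and 60.3 in WT mice. Every Rag1-/- and co-housed mouse was above every other mouse for Rsad2 and below every other mouse for Cmpk2. With co-housing Rsad2 rose 2.21-fold (adjusted p = 0.00902) and Cmpk2 fell 1.89-fold (adjusted p = 0.00494). Neither was called in Rag1-/- over WT mice, at 1.06 for Rsad2 and -0.79 for Cmpk2 (adjusted p = 0.0218 and 0.0179). Without RAG1x3163 Rsad2 was called there (1.33, adjusted p = 0.000876, and 0.000876 to 0.0776 over all refits), and Cmpk2 was called lower without RAG1x3168 (adjusted p = 0.00421, and 0.000191 to 0.0703 over all refits). The ratio of Rsad2 to Cmpk2 CPM was 0.457 to 0.661 in Rag1-/- mice and 0.467 to 0.619 in co-housed mice, against 0.125 to 0.134 in separately housed and 0.117 to 0.194 in WT mice. The Cmpk2 call ended without TCRaCox3155, TCRaCox3157 or any separately housed mouse (adjusted p 0.0108 to 0.0212, and 3.41e-06 to 0.0212 over all refits), and the Rsad2 call ended without TCRaCox3155, TCRaCox3156 or any separately housed mouse (0.0187 to 0.0326, and 0.00138 to 0.0326 over all refits). As printed above, the 250 bases before Rsad2 hold a match to the GAAA pair and those before Cmpk2 hold none. Whether the match has a part in their difference was not tested. With co-housing 14 of 18 members without a match in their window rose, and 14 of 15 with one.

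Parp9, Parp14 and Dtx3l stand together on chromosome 16 of mm9. Parp9 and Dtx3l form a complex that joins ADP-ribosyl transfer to ubiquitin ligation, and Parp12 and Parp14 are ADP-ribosyl transferases. All 4 rose with co-housing, and Parp9 and Dtx3l rose in Rag1-/- mice. Parp9 (chromosome 16, 35938556 to 35972707) had 238, 272 and 296 CPM in Rag1-/- mice, 304, 296 and 233 in co-housed Tcra-/-, 113, 102 and 111 in separately housed Tcra-/- and 167, 193 and 188 in WT mice, with the separately housed mice below all others. It rose by 0.56 in log2 in Rag1-/- over WT mice (SE 0.10, adjusted p = 0.000543) and by 1.35 with co-housing (SE 0.10, adjusted p = 4.79e-08). Dtx3l had 278, 280.1 and 226 CPM in co-housed and 111, 109.7 and 127 in separately housed Tcra-/- mice, and rose by 1.18 (adjusted p = 9.74e-07). Its call in Rag1-/- over WT mice (0.56, adjusted p = 0.00159) ended with library size alone as the scaling (adjusted p = 0.0125). Parp9 and Dtx3l lie head to head and share 334 exonic bases on opposite strands, and since the strand setting of the counting is not stated in the labels, reads of that stretch could be counted for either. Parp14 had 353, 431 and 427 CPM in Rag1-/- mice, 494, 512 and 399.5 in co-housed Tcra-/-, 154, 161 and 185 in separately housed Tcra-/- and 278, 343 and 344 in WT mice. Its change with co-housing was 2.81-fold (log2 fold change 1.49, SE 0.12, adjusted p = 8.69e-08), while in Rag1-/- over WT mice it was at 0.33 (adjusted p = 0.0388). Parp12 rose 1.51-fold with co-housing (adjusted p = 0.00113).

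The paralogs Ifi27l2a and Ifi27l2b, small membrane proteins encoded side by side on chromosome 12, behaved unlike each other. Ifi27l2b, the second highest of the 45 genes by reads per kilobase (209 CPM per kilobase over all mice), had 163, 280.4 and 299.9 CPM in Rag1-/- mice, 234, 257 and 171 in co-housed Tcra-/-, 248, 237 and 253 in separately housed Tcra-/- and 191, 229.6 and 174 in WT mice. Neither pair of groups separated, and Ifi27l2b was not called (log2 fold change 0.32 in Rag1-/- over WT mice and -0.16 with co-housing). Ifi27l2a, named after its values were seen, had 10.04, 10.97 and 11.1 CPM in Rag1-/- mice, 23.4, 28.6 and 29.3 in co-housed Tcra-/-, 17.4, 14.6 and 11.8 in separately housed Tcra-/- and 15.05, 13.2 and 14.1 in WT mice. The co-housed mice were above all others and the Rag1-/- mice below all others. Ifi27l2a rose 1.85-fold with co-housing (adjusted p = 2.61e-05) and had a log2 fold change of -0.40 in Rag1-/- over WT mice that missed the threshold (adjusted p = 0.0276).

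Of the 11 remaining genes, 2 rose in Rag1-/- mice, or 5 without RAG1x3163, and 10 rose with co-housing. Lgals9, a galectin that also acts as an immune ligand, had the highest level of the 45 genes per length (340 CPM per kilobase over all mice). It had 588, 670.1 and 669 CPM in Rag1-/- mice, 673, 819.6 and 685 in co-housed Tcra-/-, 362, 317 and 325 in separately housed Tcra-/- and 426, 479 and 453 in WT mice, without overlap in either comparison. It rose 1.42-fold in Rag1-/- mice (adjusted p = 0.000387) and 2.17-fold with co-housing (adjusted p = 6.91e-08). Ifi44 (chromosome 3, 151393887 to 151412923), an antiviral protein of the cytoplasm, had 20.8, 35.2 and 53.3 CPM in Rag1-/- mice, 36.4, 57.3 and 29.7 in co-housed Tcra-/-, 1.91, 1.93 and 1.25 in separately housed Tcra-/- and 2.18, 4.76 and 5.19 in WT mice. Its changes were the largest of the 45 genes, 9.02-fold in Rag1-/- mice (log2 fold change 3.17, SE 0.46, adjusted p = 0.000777) and 24.3-fold with co-housing (4.60, SE 0.51, adjusted p = 6.95e-05). With only the 6 libraries of Rag1-/- and WT mice in the fit, Ifi44 had an adjusted p of 0.0101 (2.42e-11 to 0.0101 over all refits).

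Lgals3bp, a secreted glycoprotein that binds galectins and is the next highest of the 45 genes per length at 109 CPM per kilobase, had 201, 282 and 316 CPM in Rag1-/- mice, 297, 368 and 308 in co-housed Tcra-/-, 167, 159 and 178 in separately housed Tcra-/- and 167, 199 and 198 in WT mice. RAG1x3163 lay just above the WT mice, and Lgals3bp was called with co-housing (1.93-fold, adjusted p = 9.58e-05) but not in Rag1-/- mice (adjusted p = 0.0149). Rtp4, a chaperone of membrane receptors, and Xaf1, which binds an inhibitor of apoptosis, rose 4.07-fold and 4.82-fold with co-housing and were not called in Rag1-/- mice (adjusted p = 0.0124 and 0.0309). Without RAG1x3163 Lgals3bp, Rtp4 and Xaf1 were called in Rag1-/- over WT mice, at 0.67, 1.33 and 0.94 (adjusted p = 0.000221, 2.51e-06 and 0.000453). Over all refits their adjusted p reached 0.0836, 0.0636 and 0.113. Sp100, of nuclear bodies, rose 2.49-fold with co-housing and Epsti1 1.75-fold. Trim21, a cytosolic receptor for antibody, Tor3a, of the torsin family, and Ifi204, a DNA sensor and the lowest of the 45 genes per length (1.56 CPM per kilobase), rose by 0.66, 0.55 and 1.49 in log2 with co-housing. Ifi35 was called in neither comparison (-0.24 in Rag1-/- over WT mice and 0.27 with co-housing).

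**Figure D3:**
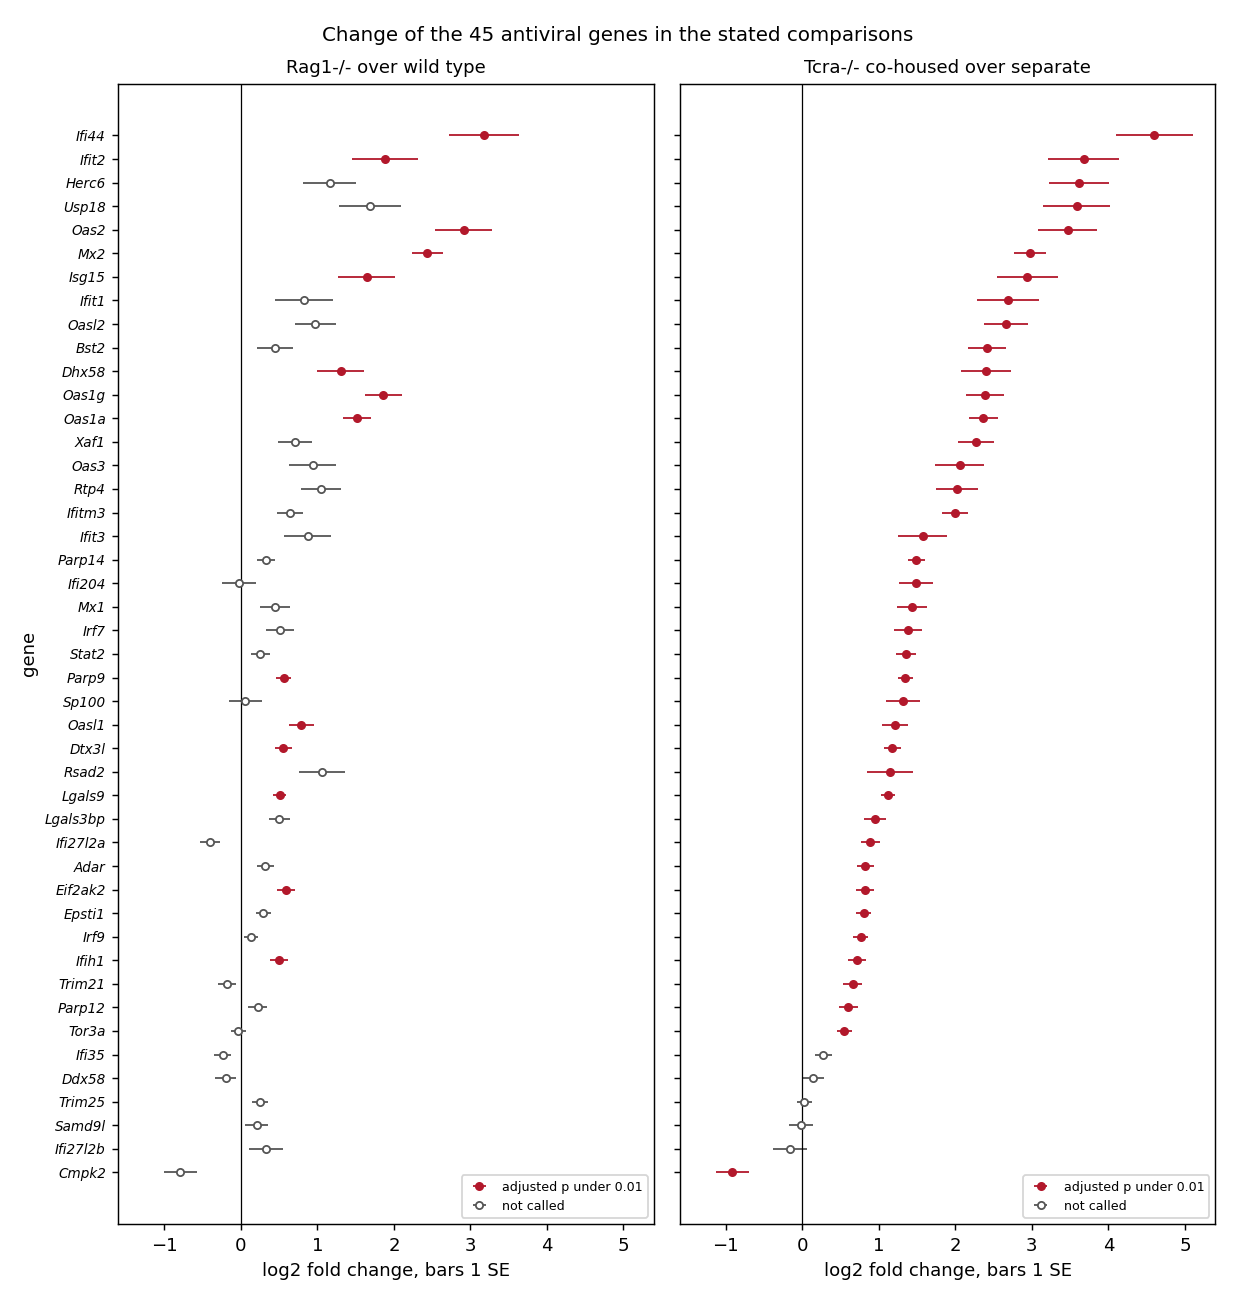
Log2 fold change with 1 SE of the 45 antiviral genes, in Rag1-/- over WT mice on the left and in co-housed over separately housed Tcra-/- mice on the right, in the same order of genes; filled red points have an adjusted p under 0.01. The 14 called genes on the left are all called on the right, where 40 genes are called and Cmpk2 alone lies below 0 with a call.

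In co-housed Tcra-/- over WT mice 28 of the 45 members rose and 0 fell, against 9.34% and 9.19% of all genes tested, with a median log2 fold change of 0.91. All 3 co-housed mice lay above all 3 WT mice in 39 members and below them in 1, against 20.9% and 20.8% of all genes tested. Without WTB6x3159 the number of members called higher was 18, and without TCRaCox3157 it was 26. In separately housed Tcra-/- over WT mice 0 members rose and 13 fell, against 6.06% and 7.7% of all genes tested, with a median of -0.53. The 13 were Irf9, Stat2, Herc6, Oasl2, Bst2, Ifitm3, Parp9, Parp14, Dtx3l, Xaf1, Trim21, Lgals9 and Sp100. Herc6, added after its values were seen, had 6.45, 8.55 and 7.81 CPM in separately housed Tcra-/- mice against 26.02, 38.5 and 38.6 in WT mice, the largest difference of the 45 genes (log2 fold change -2.18, SE 0.38, adjusted p = 0.00338). That call ended without any single separately housed mouse, WTB6x3160 or WTB6x3167, with adjusted p up to 0.0179 (3.30e-09 to 0.0179 over all refits). Parp14 (-0.95, SE 0.11, adjusted p = 3.33e-05), Parp9 (-0.75, SE 0.10, adjusted p = 7.75e-05) and Dtx3l (-0.63, SE 0.11, adjusted p = 0.00105) were lower in separately housed Tcra-/- than in WT mice in all 12 refits. All 3 separately housed mice lay below all 3 WT mice in 33 members and above them in 2, against 19.8% and 20.9% of all genes tested. The number of members that fell was 6 without TCRaSepxT2, 4 without TCRaSepxT3 or TCRaSepxT4, 3 without WTB6x3160 and 4 without WTB6x3167, and 24 when only the 6 libraries of these groups were fitted. WT mice serve in 3 of the comparisons, so their calls are not independent of each other.

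The changes in both stated comparisons were also set against each other, as the difference of their log2 fold changes in the same fit. The change in Rag1-/- over WT mice was smaller than that with co-housing in 13 of the 45 members and larger in 0, against 7.42% and 4.61% of all genes tested. The references differ, so a lower level in separately housed Tcra-/- than in WT mice enters this difference. The 13 hold Stat2, Irf9, Parp9, Parp14 and Ifitm3 among others. Without RAG1x3163 the number was 14 and without TCRaCox3157 it was 15.

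Over all 4 groups 40 of the 45 genes differed (adjusted p under 0.01 by the quasi-likelihood test of any difference), against 41.7% of all genes tested. The order of group means, a description, was the same in 31 genes: co-housed Tcra-/- highest, then Rag1-/-, then WT, and separately housed Tcra-/- lowest. Co-housed Tcra-/- mice had the highest mean in 36 genes and separately housed Tcra-/- mice the lowest in 39. Rag1-/- mice had the highest mean in 6 genes, and among the 14 genes that rose in Rag1-/- mice were Ifih1, Oas1g and Dtx3l with means of 162 ± 30.6, 20.1 ± 6.56 and 263 ± 25.95 CPM in Rag1-/- mice against 149 ± 18.3, 19.2 ± 3.24 and 261 ± 30.6 CPM in co-housed Tcra-/- mice, which is within their SD.

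The Rag1-/- mice differed among themselves more than the other groups in these genes. The range of log2 CPM over the 3 mice of a group had a median over the 45 genes of 0.725 in Rag1-/- mice, 0.410 in co-housed Tcra-/-, 0.204 in separately housed Tcra-/- and 0.359 in WT mice. Over all genes tested the same median was 0.239, 0.284, 0.256 and 0.264 in that order of groups. The range was over 1, a factor of 2, in 15 genes in Rag1-/- mice, 1 in co-housed, 0 in separately housed Tcra-/- mice and 2 in WT mice. RAG1x3168 was the highest Rag1-/- mouse in 37 of the 45 genes, TCRaCox3156 the highest co-housed mouse in 37 and WTB6x3159 the lowest WT mouse in 33. The summed level of the 45 genes was 3714, 4866 and 5525 CPM in the Rag1-/- mice, 5335, 5959 and 4652 CPM in the co-housed mice, 2587, 2527 and 2702 CPM in the separately housed mice and 3100, 3591 and 3463 CPM in the WT mice. The groups of either comparison did not overlap in that sum.

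The 15 genes with a GAAA pair in their promoter window and the 18 without were both mostly higher with co-housing. Of the 15, 6 rose in Rag1-/- mice and 14 with co-housing, with median log2 fold changes of 0.64 and 1.58. Of the 18, 4 rose in Rag1-/- mice and 14 with co-housing, with medians of 0.41 and 1.06. Without RAG1x3163 the numbers that rose in Rag1-/- mice were 9 of the 15 and 10 of the 18. Whether the groups of promoters differ was not tested.

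Other genes of the interferon pathway were read from a list by role. The shares of all genes tested were 9.42% higher and 11.5% lower in Rag1-/- over WT mice, and 21.1% and 17.7% with co-housing. Transcripts of the interferons themselves were close to absent: 18 genes of type I and lambda interferons were in the table, 14 had no read, and the other 4, Ifnab, Ifnb1, Ifnk and Il28b, had 24 reads over all 12 libraries, of which 11 were in Rag1-/-, 5 in co-housed Tcra-/-, 3 in separately housed Tcra-/- and 5 in WT mice. Levels of that order were not detectable as differences at this depth. Of 9 receptor and kinase genes 0 rose, with 1 lower in Rag1-/- mice, Ifngr2 (log2 fold change -0.42, SE 0.08, adjusted p = 0.000866), and 4 lower with co-housing, Il28ra (-1.03), Il10rb (-0.47), Ifngr2 (-0.67) and Jak2 (-0.56). Il28ra and Il10rb encode the receptor of interferon lambda. Of 10 further transcription factors and inhibitors, 7 rose and 1 fell with co-housing, and 2 rose and 1 fell in Rag1-/- mice. Socs3, an inhibitor of cytokine signalling, rose in both, by 2.96 in Rag1-/- mice and 3.36 with co-housing, and Socs1 with co-housing by 3.48. Of 13 genes of nucleic acid sensing upstream of interferon, 4 rose and 4 fell in Rag1-/- mice (4 and 3 without RAG1x3163). With co-housing 7 rose and 1 fell (8 and 1 without TCRaCox3157). Zbp1, a sensor of Z-form nucleic acid, rose by 1.21 in Rag1-/- mice (adjusted p = 0.00452) and by 5.36 with co-housing (adjusted p = 4.69e-07), and Tlr9, a DNA receptor, fell by 2.11 in Rag1-/- mice.

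A list of further interferon-induced genes outside the 45 held 38 genes that were tested. In Rag1-/- over WT mice 4 of the 38 rose and 6 fell (5 and 5 of 40 without RAG1x3163), next to 9.42% and 11.5% of all genes tested. The median log2 fold change was 0.05. With co-housing 30 rose and 2 fell (31 and 1 of 40 without TCRaCox3157), next to 21.1% and 17.7% of all genes tested. The median there was 0.95. Plac8 (1.09), Pnpt1 (0.62), Mlkl (0.72) and Ifitm2 (0.32) rose in Rag1-/- mice, and among those that fell were Sp140 (-1.44), Nmi (-0.50) and Ifi203 (-1.27). A second list held 18 interferon-inducible GTPases and direct targets of interferon gamma. Of these, 0 rose and 3 fell in Rag1-/- mice, namely Gbp9, Ciita and Ido1, with a median of -0.38. Without RAG1x3163 the number that fell was 2. With co-housing 17 rose, with a median of 2.78. The summed level of the 18 was 389 to 530 CPM in Rag1-/- mice and 823 to 1669 CPM in co-housed mice, against 134 to 148 CPM in separately housed and 426 to 730 CPM in WT mice. Ifng, the gene of interferon gamma, had 11, 2 and 7 reads in Rag1-/- mice, 41, 47 and 13 in co-housed, 2, 0 and 2 in separately housed Tcra-/- and 14, 36 and 19 in WT mice, and was called higher with co-housing (adjusted p = 0.000124). In Rag1-/- over WT mice the 45 antiviral genes and the 18 targets thus had medians on opposite sides of 0. Whether the lists differ was not tested.

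**Figure D4:**
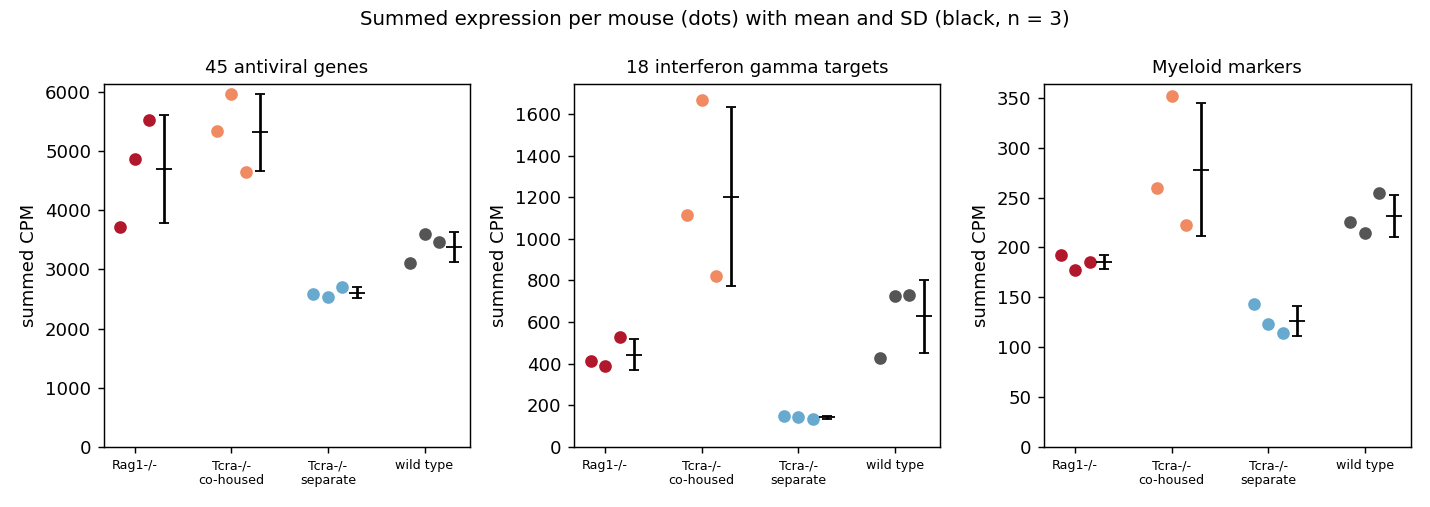
Summed CPM in each mouse of the 45 antiviral genes, of the 18 interferon gamma targets and of the myeloid markers, with mean and SD of 3 mice in black and every axis starting at 0. The antiviral sum is higher in Rag1-/- than in WT mice, while Rag1-/- and WT mice overlap in the sum of the targets. Rag1-/- mice lie below WT mice in the myeloid sum, of which Lyz2 is the largest part. Of the 9 myeloid genes 1 was called higher and 0 lower in Rag1-/- mice, against 9.42% and 11.5% of all genes tested.

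Several markers of other cells differed between these groups, and their part in the changes of the antiviral genes was not tested. For the counts below, the shares of all genes tested were 9.42% higher and 11.5% lower in Rag1-/- mice, and 21.1% and 17.7% with co-housing. Myeloid markers, 9 genes, were summed at 178 to 192 CPM in Rag1-/- mice and 222 to 352 CPM in co-housed mice, against 114 to 143 CPM in separately housed and 215 to 255 CPM in WT mice. Of the 9, 1 rose and 0 fell in Rag1-/- mice, and 8 rose with co-housing. Lyz2, the largest part of the sum, had 78.5, 66.5 and 71.5 CPM in Rag1-/- and 121, 107 and 121 in WT mice. Itgam and Cd14 lay the other way, with 25.1, 29.8 and 26.9 against 21.0, 18.6 and 22.8 CPM for Itgam. Markers of plasmacytoid dendritic cells, known as strong producers of type I interferon, were summed over 8 genes. The sums were 86.9 to 97.8 CPM in Rag1-/-, 112 to 128 in co-housed, 96.1 to 103 in separately housed Tcra-/- and 130 to 137 CPM in WT mice. Of the 8, 4 were lower in Rag1-/- mice. With co-housing 2 of 8 were higher, near the 21.1% of all genes tested, and 3 of 8 without TCRaCox3157. The defining marker of these cells, Siglech, had 58, 40 and 67 reads in Rag1-/- mice, 24, 54 and 30 in co-housed, 27, 31 and 21 in separately housed Tcra-/- and 50, 67 and 72 in WT mice. Its values overlapped between Rag1-/- and WT mice. Most of the sum lay in Klk1 and Tcf4, with 38.2, 41.9 and 39.7 and with 34.0, 34.3 and 32.4 CPM in Rag1-/- mice. Spib had 3.85, 4.17 and 4.57 CPM in Rag1-/- against 21.1, 20.5 and 17.1 in WT mice. Which cells the reads of these 8 genes came from was not tested. T cell markers, 7 genes, had 8.16 to 11.4 CPM in Rag1-/- mice, 28.5 to 63.3 in co-housed, 12.6 to 14.0 in separately housed Tcra-/- and 74.2 to 112 CPM in WT mice. They were lower in 7 of 7 genes in Rag1-/- mice and higher in 6 of 7 with co-housing (7 of 7 without TCRaCox3157). Plasma cell markers, 4 genes, were summed at 146 to 158 CPM in Rag1-/- mice, 326 to 574 in co-housed, 194 to 205 in separately housed Tcra-/- and 1443 to 1917 CPM in WT mice, with 3 of 4 lower in Rag1-/- mice, and 2 of 4 higher and 1 lower with co-housing (2 and 0 without TCRaCox3157). Most of that sum in Rag1-/- and separately housed mice was Sdc1, with 155, 145 and 156 and with 168, 175 and 172 CPM. In WT mice Sdc1 had 180, 179 and 150 CPM. Igj had 0.0245, 0.166 and 0.384 CPM in Rag1-/- mice and 1229, 1265 and 1722 CPM in WT mice. B cell markers were higher in 4 of 6 genes with co-housing (5 of 6 without TCRaCox3157) and lower in 6 of 6 in Rag1-/- mice. Their sum was 90.7 to 131 CPM in co-housed against 38.5 to 71.1 CPM in separately housed mice.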

How the data were processed

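Terminal ileum RNA of 12 mice, taken up in Trizol, was sequenced from stranded Illumina mRNA libraries, per the labels' protocols. The deposited table holds raw read counts per gene, whole numbers that the authors had not normalized, per the file headers. Per the submitters' processing notes the authors used bcl2fastq, Bowtie2 2.2.2.0 and TopHat2 2.0.11 on mm9, featureCounts from Subread 1.4.5-p1, and DESeq2 1.12.3. Strand setting, annotation and the use of reads with several map positions count as not given in the sources used here. Of the 23284 genes 3810 had no read, and 15866 passed filterByExpr.

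Counts were scaled by TMM (factors 0.926 to 1.07) and fitted in edgeR 4.0.16 (R 4.3.3) with robust quasi-likelihood, 1 term per group over all 12 libraries, which leaves 8 residual degrees of freedom. Contrasts were tested two-sided and called at a Benjamini-Hochberg adjusted p under 0.01, the rate of 1% in the design text. The script was tested on simulated data. The SE is the log2 fold change divided by the root of F. Alternatives were DESeq2's size factors, library size alone, no filter, CPM above 1 in at least 3 libraries, DESeq2 1.42.0, only the 6 libraries compared, a threshold of 0.05, and each mouse left out. Intervals and tests do not make reads without molecular identifiers independent molecules. Members, lists and tests were chosen with earlier results of these data known. Genes described per mouse were, per comparison, the 8 called members of smallest adjusted p without overlap, the 3 highest per kilobase and the highest of each role not otherwise named, and the text says where others were added. Promoters came from RefSeq (GRCm38.p6) and shared 50-base words from the transcripts of GENCODE. Beside the genes flagged in the text, Adar shared 14.4% of its words with other genes, Rtp4 11.6%, Ifi35 10.4% and Ifitm3 10.0%. Libraries of a group were separate mice, and none were counted together. Some items are not reported here.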

Additional observations from a re-analysis of the deposited data

Results flagged for a closer look

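The change in Rag1-/- over WT mice and the change in co-housed over separately housed Tcra-/- mice share no library, and their difference was tested gene by gene in the same fit. In 13 of the 45 members the change in Rag1-/- mice was the smaller or went the other way (edgeR's quasi-likelihood test, adjusted p under 0.01, n = 3 mice per group), and in 0 it was the larger, against 7.42% and 4.61% of all genes tested. The references of the changes differ, so a lower level in separately housed Tcra-/- than in WT mice enters the difference. Of these 13, all but Ifi27l2a, Tor3a and Ifi204 were also called lower in separately housed Tcra-/- than in WT mice. The largest difference was in the Isg15 ligase Herc6 (-2.45, SE 0.50, adjusted p = 0.00894). Its log2 fold change was 1.16 in Rag1-/- over WT mice and 3.62 with co-housing. Herc6 averaged 77.0 ± 33.4 CPM in Rag1-/- and 93.2 ± 25.6 in co-housed mice, against 34.4 ± 7.24 in WT and 7.60 ± 1.06 in separately housed mice. Bst2, which tethers virus, differed by -1.97, Xaf1 by -1.57, the DNA sensor Ifi204 by -1.51, Ifitm3 by -1.36 and Ifi27l2a by -1.29. The reads of Ifi204 are uncertain because of shared sequence, as given above. Among the transcription factors Stat2 differed by -1.10 and Irf9 by -0.63. Parp14 differed by -1.16, Trim21 by -0.84, Parp9 by -0.79, Lgals9 by -0.61 and Tor3a by -0.58. Ifi204, Tor3a, Trim21 and Ifi27l2a were at or below 0 in Rag1-/- over WT mice, at -0.03, -0.03, -0.18 and -0.40, none of them called. Several members that were not called had differences as large, among them Ifit1 (-1.87, adjusted p = 0.0421), Ifit2 (-1.79, adjusted p = 0.0745) and Oasl2 (-1.69, adjusted p = 0.0133). In the same groups myeloid markers were higher with co-housing in 8 of 9 genes and in Rag1-/- mice in 1 of 9. The shares of all genes tested were 21.1% and 9.42%. The part of the myeloid markers in these differences was not tested.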

How the results depend on the processing

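No paired analysis was possible because the labels carry no replicate numbers that groups share. Called members of a comparison were followed through 12 refits. In Rag1-/- over WT mice 129 of 168 values kept the call, and 5 of 14 members kept it throughout (Lgals9, Mx2, Oas1a, Oas1g and Parp9). With co-housing 467 of 480 values and 38 of 40 members kept it, and the exceptions were Cmpk2 and Rsad2. In co-housed over WT mice 17 of 28 members kept it, and in separately housed over WT mice 3 of 13. No called member changed sign in these refits. The members higher in Rag1-/- mice numbered 26 at a threshold of 0.05, 7 with library size alone, 8 with only 6 libraries, 24 by DESeq2 and 9 to 25 with a mouse left out. Those lower in Rag1-/- mice numbered 2 at 0.05 (Cmpk2 and Ifi27l2a), 3 with library size alone (Cmpk2, Ifi27l2a and Ifi35), 1 by DESeq2 (Cmpk2) and 0 to 1 with a mouse left out. Library size alone put the median of all genes at -0.19 in Rag1-/- over WT mice, -0.12 with co-housing and -0.12 in co-housed over WT mice, and the medians of the members at 0.34, 1.25 and 0.79, so directions are relative to the scaling. Members lower in co-housed over WT mice numbered 1 at 0.05 and 1 by DESeq2, and those higher 18 to 26 with a mouse left out. With co-housing the single lower call was 0 to 1 with a mouse left out. In separately housed over WT mice 24 members were lower with only 6 libraries and 3 to 12 with a mouse left out. The difference of the stated contrasts gave 24 members lower at 0.05 and 10 to 20 with a mouse left out. It was not run by DESeq2. The cause of these changes was not tested. Ifi204 had 1810 reads over 12 libraries, the fewest of the 45 genes, and the lowest count of a member in a library was 57 (Ifi44 in TCRaSepxT4). How depth affects the calls was not tested.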
